A study of Mus musculus with 31 samples.

Results

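Forkhead (Fox) genes encode transcription factors that share a winged-helix DNA-binding domain. Members were all genes of the array table whose symbol is Fox followed by a class letter from a to s and a number. This rule gave 43 of the 19938 genes with a symbol of their own. Foxf1 and Foxn3 had 2 rows each, of which the row with the higher mean over all 31 arrays was used.

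The study followed mouse embryonic fibroblasts (MEFs), primary cells grown in serum-containing DMEM, on single-colour arrays after retroviral infection on day 0. The 4F arm received Oct4, Sox2, Klf4 and c-Myc and was measured daily from day 1 to day 6 and then on days 8, 10 and 12, with 16 arrays. The 3F arm received Oct4, Sox2 and Klf4 without c-Myc and was measured on days 3, 5, 8 and 12 with 4 arrays. The control arm received a GFP virus and was measured on days 1, 3, 5, 8 and 12 with 9 arrays, and 2 arrays of uninfected cells give day 0. Of these 19 groups, 12 had 2 arrays, titled biological replicates, and 7 had 1 array (all 3F days, 4F days 10 and 12, and GFP day 12). In the labels of the 3F cells, 1 field counts 4 factors while listing Oct4, Sox2 and Klf4, the other fields say 3, and every 3F value rests on the latter. The promoter of the retroviruses and the MEF strain are not given in the sources used here, and p-values measure only the spread between these arrays. Values are log2 signals as deposited, "fell", "rose" and "called" refer to an adjusted p under 0.05 over all 19938 genes, and errors are standard errors of the limma fit.

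Each array measures a whole culture, in which fewer cells of a type and less RNA per cell cannot be told apart. The mean log2 signal of 18 fibroblast markers was 9.95 and 10.07 on day 0, 11.34 to 11.44 on the 3 GFP arrays of days 8 and 12, and 8.99 to 9.29 on the 4 4F arrays of days 8 to 12. On day 8, 17 of the 18 were called lower in 4F than in GFP. The 3F arrays, of days 3 to 12, ran from 10.03 to 10.44. Over all their days the 4F arrays ran from 8.99 to 10.03 and the GFP arrays from 10.22 to 11.44. Markers of other cell types moved less as lists on day 8: 1 of 12 endothelial genes was higher and 1 lower, 3 of 12 macrophage genes were lower, 1 of 11 T cell genes was higher, and 3 of 12 keratinocyte genes were higher. Of all genes, 14.5% were called higher in 4F than in GFP on day 8 and 13.0% lower. The part of these marker shifts in the Fox results below was not tested.

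The forkhead classes have well-separated roles. Foxc, Foxf, Foxl and Foxs genes act in mesenchyme and vessel walls, and Foxd1 marks the stromal progenitors of the kidney and part of the retina. Foxo factors are held in the cytoplasm by Akt phosphorylation and switch on genes of cell cycle arrest and stress resistance when freed, whereas Foxm1 drives genes of mitosis in dividing cells. Foxa factors open chromatin in endoderm, Foxd3 acts in pluripotent cells and neural crest, and Foxh1 carries Nodal signals with Smad proteins.

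Promoter sequence is shown for Foxd1 and Foxf2, the 2 members whose 4F difference from GFP changed between days 1 and 8. Both genes lie on chromosome 13. The sequences are RefSeq's (GRCm38.p6), are the 250 bases before each annotated start on the plus strand, at chr13:98353995-98354244 for Foxd1 and chr13:31625566-31625815 for Foxf2, and are printed 5′ to 3′ with CCAAT and GC boxes in capitals.
Foxd1: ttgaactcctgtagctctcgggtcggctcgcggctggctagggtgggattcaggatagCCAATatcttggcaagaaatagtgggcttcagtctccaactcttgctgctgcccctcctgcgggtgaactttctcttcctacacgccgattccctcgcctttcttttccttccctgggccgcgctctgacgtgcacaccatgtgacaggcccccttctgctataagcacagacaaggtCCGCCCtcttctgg
Foxf2: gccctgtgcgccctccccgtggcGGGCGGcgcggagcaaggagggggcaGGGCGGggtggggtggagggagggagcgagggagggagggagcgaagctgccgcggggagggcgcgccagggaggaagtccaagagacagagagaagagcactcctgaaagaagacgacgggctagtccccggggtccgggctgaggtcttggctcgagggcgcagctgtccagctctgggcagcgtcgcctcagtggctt
The Foxd1 stretch has 57.2% G and C, 1 CCAAT box on the plus strand starting 192 bases before the start, and 1 GC box (GGGCGG, here read on the minus strand as CCGCCC) starting 14 bases before it. The Foxf2 stretch has 71.6% G and C and holds GC boxes starting 227 and 201 bases before the start. Across all 32851 promoters of this length, 33.8% held CCAAT and 32.7% held GGGCGG on either strand. Neither stretch held the octamer ATGCAAAT (in 1.6% of promoters), the Sox letters CATTGT (10.7%), the E-box CACGTG (6.02%), the cell cycle letters TTTGAA (16%) or the forkhead letters TGTTTAC (3.17%). Of the 43 members, 28 had an entry, with 33 promoters in all. The octamer was in 0 of these members, the Sox letters in Foxd4 and Foxp1, the E-box in Foxd3, the cell cycle letters in Foxn3, Foxp1 and Foxp3, and the forkhead letters in Foxa1. These are matches of letters and say nothing on whether a factor binds.

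On day 8, 8 of the 43 Fox genes (18.6%) were called between 4F and GFP, against 27.6% of all genes, a share below the background. Foxd1, Foxm1, Foxo4 and Foxn2 were higher in 4F (14.5% of all genes were), and Foxf2, Foxc2, Foxp1 and Foxp2 were lower (13.0% of all genes). The median log2 difference of the 43 was -0.06, beside -0.03 over all genes. With the replicate set as a block, 12 members were called on day 8 (27.9%, against 34.2% of all genes). On day 1, 0 of 43 were called by limma against 1.81% of all genes, and 6 had an unadjusted p under 0.05 (14% of members, 12.8% of all genes). With the replicate set as a block, Foxc1 and Foxs1 were called on day 1 (4.65% of members, against 4.63% of all genes). There were 3 calls on day 3 (Foxd1, Foxc2 and Foxs1, against 11.9% of all genes) and 3 on day 5 (Foxd1, Foxc2 and Foxo4, against 21.4%). With the block the day 5 count was 6, or 14%, with Foxf2, Foxk2 and Foxq1 added, against 28.2% of all genes. The mean difference over days 1, 3, 5 and 8 was called for 14 members, or 32.6%, against 37.4% of all genes. Of these 6 were higher (18.8% of all genes) and 8 lower (18.7%).

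**Figure D1:**
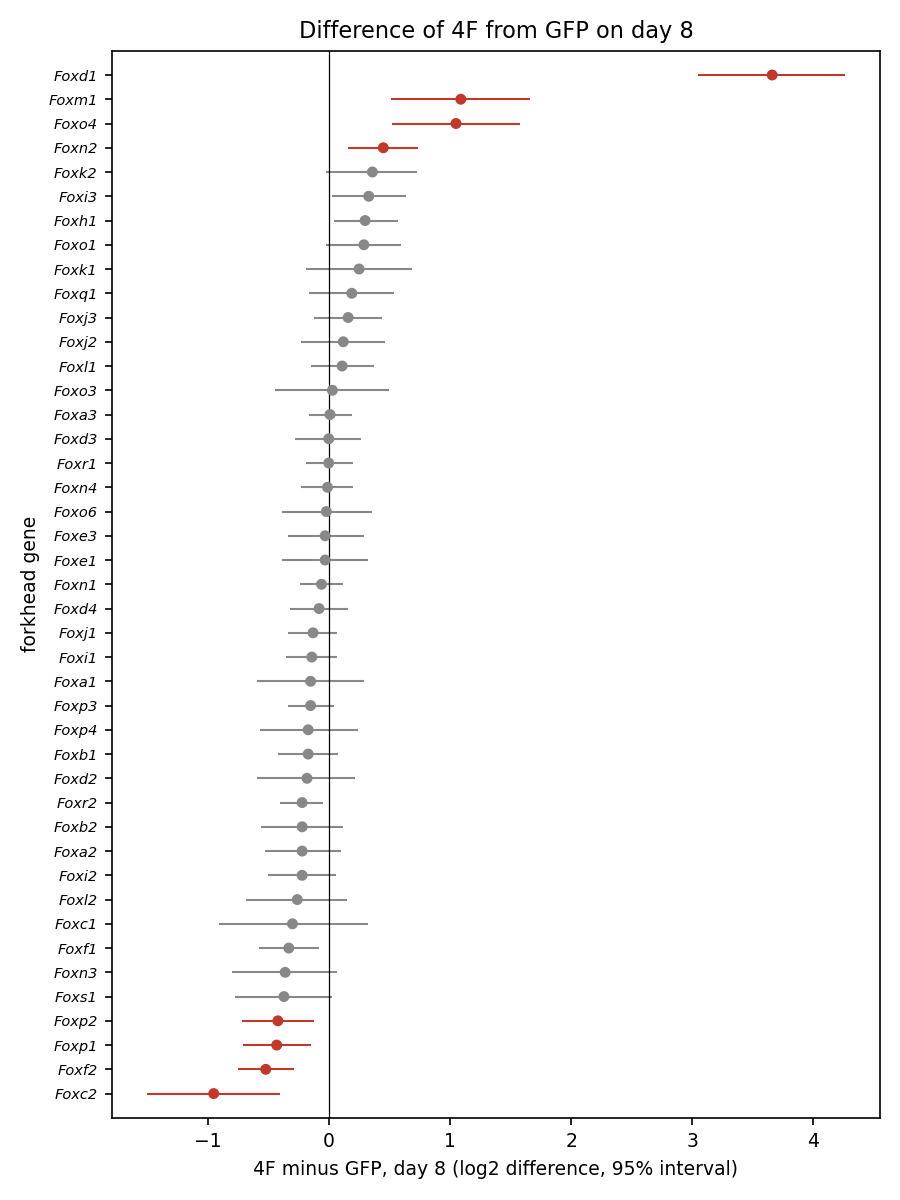
Log2 difference of 4F from GFP on day 8 for the 43 Fox genes (2 arrays a group), with bars for the 95% interval of the limma fit and the 8 called genes in red. Foxd1 stands at 3.66, and every other member lies within 1.09 of 0.

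Foxd1 carried the widest change in the family. Its log2 signal was 6.69 and 6.84 on day 0. In 4F it was 6.70 and 6.66 on day 1, 8.32 and 8.05 on day 2, 8.54 and 8.35 on day 3, and 9.03 and 8.95 on day 4. It then stood at 9.43 and 9.64 on day 5, 9.35 and 9.96 on day 6, 9.54 and 9.71 on day 8, 9.38 on day 10 and 8.77 on day 12. Thus the 4F arrays left the day 0 level between days 1 and 2, and the lowest of the 12 arrays from day 3 on read 8.35. In GFP the signal was 7.13 and 6.18 on day 1, 6.33 and 6.17 on day 3, 6.53 and 6.02 on day 5, 6.33 and 5.60 on day 8, and 6.08 on day 12. Every 4F array of days 3, 5, 8 and 12 lay above every GFP array of those days, with a gap wider than any distance between replicates of Foxd1.

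**Figure D2:**
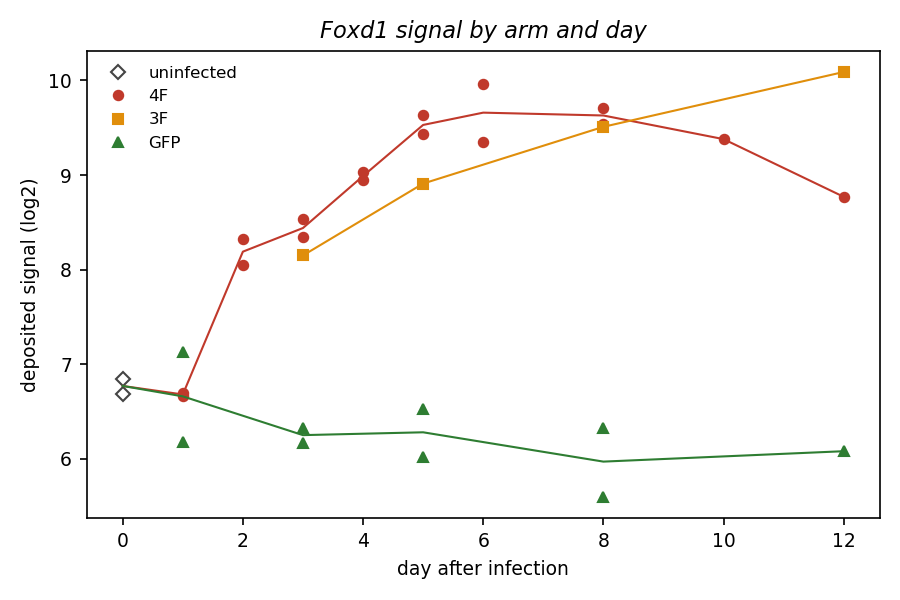
Log2 signal of Foxd1 by day after infection, 1 point per array, with lines through the group means of each arm and the 2 uninfected arrays at day 0. The 4F and 3F arrays from day 3 on lie between 8.15 and 10.09, and all 9 GFP arrays lie at or below 7.13.

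The 4F and GFP arms differed in Foxd1 by 0.02 (log2) on day 1, by 2.19 ± 0.28 on day 3 (adjusted p = 0.00016), by 3.26 ± 0.28 on day 5 (adjusted p = 2.8e-06) and by 3.66 ± 0.28 on day 8 (adjusted p = 3.9e-07), which is 12.6-fold. The replicate 1 arrays alone gave 3.21 on day 8 and the replicate 2 arrays 4.10. The day 8 difference exceeded that of day 1 by 3.63 ± 0.40 (adjusted p = 8.5e-05), a test that called 2 of 43 members (Foxd1 and Foxf2) and 8.49% of all genes. Against day 0, Foxd1 rose by 2.86 in 4F (adjusted p = 9.8e-06). In GFP the day 8 level was 0.80 below day 0, with adjusted p = 0.063 in the main model and 0.042 with the replicate block. Both GFP arrays of day 8 lay below both day 0 arrays. The calls of Foxd1 between 4F and GFP held whichever single array of the groups compared was left out.

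In 3F, Foxd1 read 8.15 on day 3, 8.91 on day 5, 9.51 on day 8 and 10.09 on day 12. The difference from GFP over these days was 2.99 ± 0.30 (adjusted p = 1e-05). The difference of 4F from 3F was -0.01, with a 95% interval from -0.65 to 0.64 and adjusted p = 1. By day, the 4F mean minus the 3F array was 0.29, 0.62 and 0.12 on days 3, 5 and 8, and -1.33 on day 12, where each arm has 1 array. With the replicate block the 3F arm enters only by way of day 12, and the value was -1.18 (adjusted p = 0.54).

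Among genes outside the family, the group means that tracked Foxd1 most closely were those of Nt5e, the ecto-enzyme CD73, with Pearson r = 0.978 over the 19 groups. Ctnnal1 (0.968), Pllp (0.968), Alg13 (0.967) and 1700019D03Rik (0.966) came next. The groups share arms and days, so these values describe likeness of course and carry no test.

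Among the mesenchymal forkheads, Foxc2, a regulator of lymphatic and vascular development, was at 8.34 and 8.25 on day 0, above every infected array. In 4F its log2 signal was 6.77 and 6.75 on day 1, 6.16 on both day 2 arrays, 5.95 and 5.97 on day 3, 5.92 and 5.54 on day 5, 6.12 and 5.40 on day 8, 5.06 on day 10 and 5.32 on day 12. In GFP it was 7.25 and 7.82 on day 1, 6.73 and 7.63 on day 3, 6.60 and 6.43 on day 5, 6.69 and 6.72 on day 8, and 6.31 on day 12. Signal was lower after infection in both arms, and on days 3, 5, 8 and 12 all 7 4F arrays lay below all 7 GFP arrays. Foxc2 was the only member with this order, which 6.56% of all genes showed. Foxd1 and Foxo4 showed the opposite order, as did 5.61% of all genes.

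On day 8 Foxc2 stood against day 0 at -2.54 in 4F (adjusted p = 1.2e-05) and at -1.59 in GFP (adjusted p = 0.00041), a fall in both arms. Between the arms the log2 difference was -0.77 on day 1 (adjusted p = 0.16), -1.22 on day 3 (adjusted p = 0.0059), -0.78 on day 5 (adjusted p = 0.041) and -0.95 ± 0.26 on day 8 (adjusted p = 0.011). The day 3 call was lost without the replicate 2 GFP array of that day (-0.77, adjusted p = 0.062). The day 8 call was lost without the replicate 2 4F array (-0.59, adjusted p = 0.15) and without the replicate 2 GFP array (-0.94, adjusted p = 0.052), and the day 5 call in all 4 leave-out fits. The mean over the 4 days, -0.93 ± 0.13 (adjusted p = 3.2e-05), was called in all 16 leave-out fits.

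Foxf2, a factor of gut and palate mesenchyme, was at 6.52 and 6.49 on day 0 and at 6.35 on both 4F arrays of day 1. Its 4F arrays of day 8 read 5.67 and 5.56, and those of GFP 6.17 and 6.09. The groups did not overlap on day 8, and the difference was -0.52 ± 0.11 (adjusted p = 0.0019). On day 1 it had been 0.05, and the change from day 1 to day 8 was -0.57 ± 0.15 (adjusted p = 0.032), called in 1 of 8 leave-out fits. On day 5 the difference was -0.29 (adjusted p = 0.079), or 0.028 with the replicate block. In the contrast in which these mesenchymal forkheads were lower, 17 of 18 fibroblast markers were lower too (median -2.05), and the part of that shift was not tested.

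Foxs1, expressed in pericytes and smooth muscle precursors, was 6.58 and 6.81 on day 0. The 16 4F arrays ranged from 5.48 to 6.05 with a median of 5.69, and the 9 GFP arrays from 5.72 to 6.59 with a median of 6.13, so the arms overlapped. The mean difference over days 1, 3, 5 and 8 was -0.47 ± 0.09 (adjusted p = 0.00086). It was largest on day 3, at -0.72 ± 0.19 (adjusted p = 0.021, called in 2 of 4 leave-out fits), and on day 8 it was -0.37 (adjusted p = 0.17). On day 1 the difference of -0.52 had adjusted p = 0.20, and 0.046 with the replicate block.

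Foxf1, the partner of Foxf2 in visceral mesenchyme, had a mean difference of -0.27 ± 0.06 (adjusted p = 0.0021) and a day 8 difference of -0.33 (adjusted p = 0.051, and 0.046 with the replicate block). Its other row gave -0.05 for the mean difference, so the 2 rows of Foxf1 disagree. Foxc1, the close paralog of Foxc2, had a day 1 difference of -0.80 (adjusted p = 0.21) and passed in none of the 10 contrasts. With the replicate block it was called lower on day 1 (adjusted p = 0.028) and in the mean over the 4 days (adjusted p = 0.016). Foxl1, a mesenchymal factor beneath the gut epithelium, was not called with or without the block. Foxq1, known from hair and epithelium, was called only with the block, on day 5 (0.34, adjusted p = 0.042).

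Apart from Foxs1, these genes lie near one another. In RefSeq's GRCm38.p6 annotation Foxq1, Foxf2 and Foxc1 follow each other on chromosome 13 with 0 protein-coding genes between neighbours. On chromosome 8, Foxf1 is followed by Foxc2 with 1 protein-coding gene between them, and Foxc2 by Foxl1 with 0.

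Hedgehog signalling acts upstream of Foxf1 and Foxl1 in gut mesenchyme. Of 19 measured genes of this pathway, 2 were higher in 4F on day 8 (14.5% of all genes were) and 5 lower (13.0%). Their median was -0.17, beside -0.03 over all genes. Hhip, a decoy receptor for the ligand, was 3.18 ± 0.64 higher (adjusted p = 0.0015) and Ptch1, the receptor, 2.38 ± 0.68 higher (adjusted p = 0.015). Gas1, a co-receptor, was lower, at -2.80 ± 0.37 (adjusted p = 4.5e-05).

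**Figure D3:**
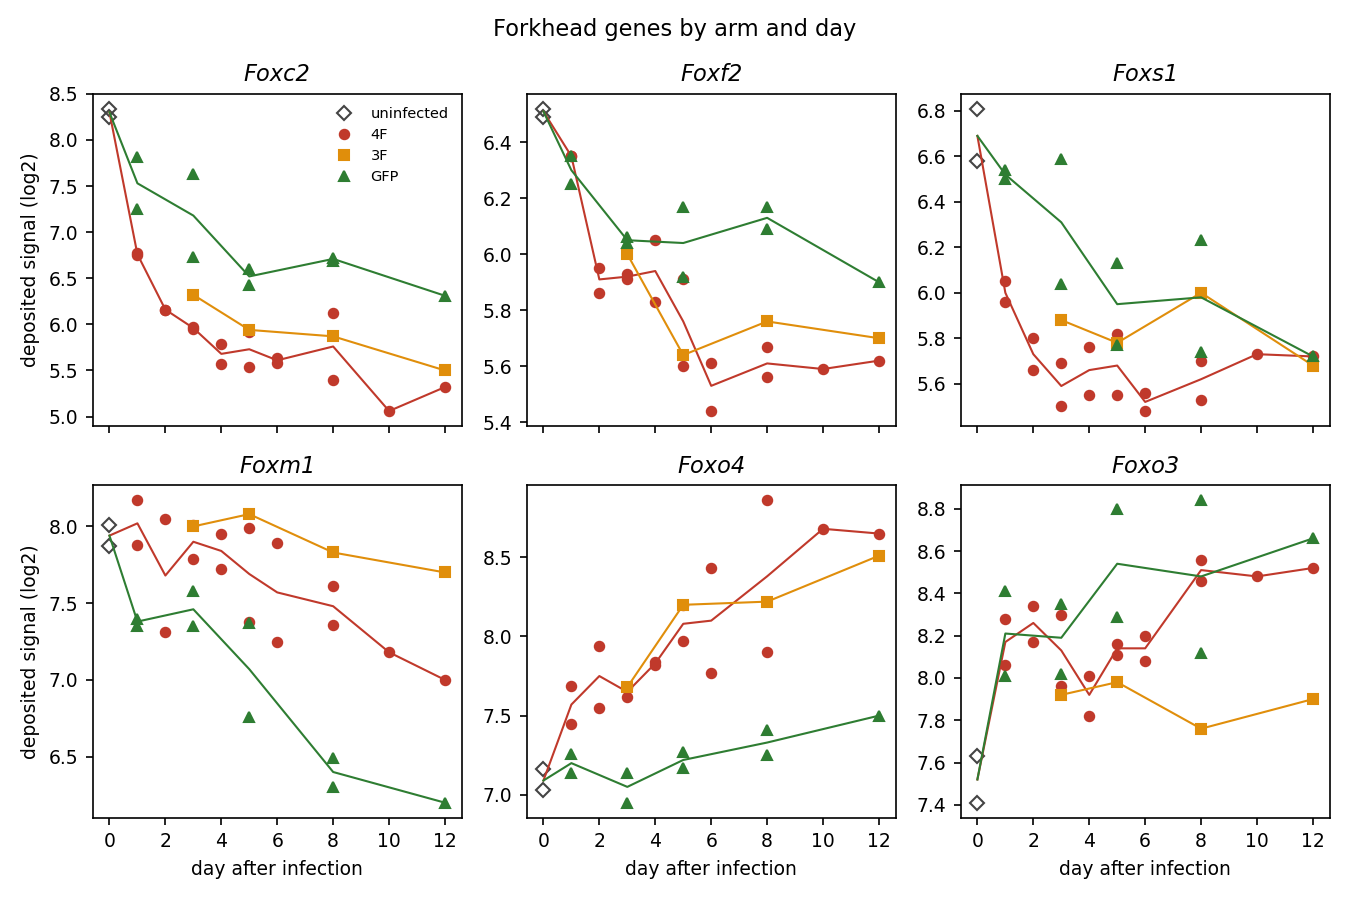
Log2 signal of Foxc2, Foxf2, Foxs1, Foxm1, Foxo4 and Foxo3 by day, 1 point per array, with lines through the group means of 4F, 3F and GFP. Foxc2 starts at 8.25 and 8.34 on day 0 and is lower in all arms, Foxm1 drops in GFP to 6.20 on day 12, Foxo4 climbs in 4F and 3F to above 8.5, and Foxo3 is above its day 0 level in every arm.

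Foxm1, the mitotic forkhead, was higher in 4F and 3F than in GFP, where it fell. Its log2 signal was 7.87 and 8.01 on day 0. In GFP it was 7.35 and 7.40 on day 1, 7.35 and 7.58 on day 3, 7.37 and 6.76 on day 5, 6.30 and 6.49 on day 8, and 6.20 on day 12. In 4F it was 8.17 and 7.88 on day 1, 7.79 and 8.01 on day 3, 7.99 and 7.38 on day 5, 7.61 and 7.36 on day 8, 7.18 on day 10 and 7.0 on day 12. Both arms were lower late than early, and the GFP arrays of days 8 and 12 were the 3 lowest of all.

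The mean Foxm1 difference of 4F from GFP over days 1, 3, 5 and 8 was 0.70 ± 0.13 (adjusted p = 0.00064). By day, the difference was 0.65 on day 1 (adjusted p = 0.3), 0.44 on day 3 (0.35) and 0.62 on day 5 (0.13), none of them called. On day 8 the Foxm1 difference was 1.09 ± 0.27 (adjusted p = 0.0063), which is 2.12-fold. Without the replicate 1 4F array of day 8 it was 0.97 with adjusted p = 0.052. Against day 0, Foxm1 in GFP dropped by 1.54 (adjusted p = 0.00072), while 4F stood at -0.45, which was not called. In 3F, Foxm1 read 8.00, 8.08, 7.83 and 7.70 on days 3, 5, 8 and 12, and 3F exceeded GFP by 1.10 ± 0.17 (adjusted p = 0.00035). The 4F minus 3F difference was -0.38 with a 95% interval from -0.73 to -0.02 and adjusted p = 0.18.

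Genes that Foxm1 is known to activate were higher in 4F as well, and a link to the Foxm1 level was not tested. Of 31 measured mitotic target genes, 29 were called between 4F and GFP on day 8, all higher in 4F. Of all genes, 14.5% were called higher. The median of the list was 1.70, beside -0.03 over all genes. Bub1, a spindle checkpoint kinase, was 2.57 ± 0.36 higher (adjusted p = 7.5e-05), with group means of 8.85 in 4F, 6.28 in GFP and 8.83 on day 0. Aurka, a spindle pole kinase, was 2.43 ± 0.28 higher (adjusted p = 1.1e-05), and Ccna2, cyclin A2, 2.38 ± 0.30 (adjusted p = 2.7e-05). Against day 0, 27 of the 31 fell in GFP (median -1.65), where 20.1% of all genes were called. In 4F 1 was called, higher (median 0.01), against 15.9% of all genes called. The day 0 arrays are shared by these last comparisons. In 3F, 20 of the 31 were called against GFP, all above it (9.47% of all genes were), with a median of 0.89. Outside the family, the gene whose group means tracked Foxm1 most closely was Rrm2, a subunit of ribonucleotide reductase, at r = 0.954 over 19 groups. Med14 (0.936), Prkar2a (0.932), Uchl1 (0.928) and Acot9 (0.927) followed.

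The Foxo genes did not move as a group. Foxo4, an X-linked target of Akt signalling, was at 7.16 and 7.03 on day 0. In 4F its log2 signal was 7.45 and 7.69 on day 1, 7.62 and 7.68 on day 3, 7.97 and 8.20 on day 5, 7.90 and 8.86 on day 8, 8.68 on day 10 and 8.65 on day 12. In GFP all 9 arrays lay between 6.95 and 7.50. The 4F arrays of days 3, 5, 8 and 12 were thus all above the GFP arrays, with the replicates of day 8 far apart.

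The Foxo4 difference was 0.37 on day 1 (adjusted p = 0.64), 0.60 on day 3 (adjusted p = 0.14), 0.86 ± 0.25 on day 5 (adjusted p = 0.021, lost in all 4 leave-out fits) and 1.05 ± 0.25 on day 8 (adjusted p = 0.0045). Replicate 1 arrays gave 0.49 on day 8 and replicate 2 arrays 1.62, and without the replicate 2 4F array the difference was 0.57 with adjusted p = 0.074. The mean over the 4 days was 0.72 ± 0.12 (adjusted p = 0.00024) and was called in all 16 leave-out fits. Against day 0, Foxo4 rose by 1.29 in 4F (adjusted p = 0.0020), and in GFP it was 0.24 higher, which was not called. In 3F it read 7.68, 8.20, 8.22 and 8.51 on days 3, 5, 8 and 12, above GFP by 0.86 ± 0.14 (adjusted p = 0.00072, and 0.067 with the replicate block).

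Foxo3, the most studied member of the class in ageing and quiescence, was at 7.41 and 7.63 on day 0. On day 8 it was 8.56 and 8.46 in 4F and 8.84 and 8.12 in GFP, so the arms overlapped while both lay above day 0. It rose against day 0 by 0.98 in 4F (adjusted p = 0.0060) and by 0.96 in GFP (adjusted p = 0.0056, called in 2 of 4 leave-out fits), comparisons that share the day 0 arrays. The arms differed on day 8 by 0.03, with a 95% interval from -0.44 to 0.50. The 3F arrays, at 7.92, 7.98, 7.76 and 7.90 on days 3, 5, 8 and 12, were below GFP, at -0.57 ± 0.15 (adjusted p = 0.015). The 4F minus 3F difference was 0.42, with a 95% interval from 0.11 to 0.74 and adjusted p = 0.089.

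Foxo1, a mediator of insulin signalling, rose against day 0 by 0.48 in 4F (adjusted p = 0.034, called in 1 of 4 leave-out fits, and 0.070 with arrays centred on their medians), from 6.76 and 6.93 to 7.47 and 7.19. In GFP it stood at 6.99 and 7.08 on day 8, and the arms differed by 0.29 (adjusted p = 0.17). Foxo6, a class member best known from brain, stayed between 5.61 and 6.34 and was called in none of the contrasts.

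Of 37 measured Foxo target genes, 2 were higher and 13 lower in 4F than in GFP on day 8, with a median of -0.37. Over all genes, 14.5% were higher and 13.0% lower, with a median of -0.03. Pdk4, a kinase that restrains pyruvate oxidation, was lower, at -2.88 ± 0.18 (group means of 5.76 in 4F, 8.64 in GFP and 6.38 on day 0). Cdkn2b, a cell cycle inhibitor, stood at -2.24 ± 0.30, whereas Bnip3, a mitophagy receptor, was 2.58 ± 0.16 higher. Against day 0, 16 of the 37 rose in GFP and 1 fell (median 0.49), and in 4F 6 rose and 3 fell (median 0.14). Of all genes, 20.1% were called against day 0 in GFP and 15.9% in 4F. More of the listed targets were lower than higher in the arm in which Foxo4 mRNA was higher, and a link between them was not tested.

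Among 27 measured regulators of Foxo proteins, 5 were higher on day 8 (14.5% of all genes were) and 6 lower (13.0%). Their median was 0.14, beside -0.03 over all genes. Sgk1, a kinase of the Akt family, was lower, at -1.72 ± 0.58 (adjusted p = 0.040). Pik3cb, a catalytic subunit of PI3-kinase, was 1.60 ± 0.23 higher, and Pik3r1, its regulatory subunit, lower at -1.37 ± 0.20. Foxo activity depends on where the protein is in the cell, which these arrays do not measure.

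The remaining called members differed by smaller amounts. Foxn2 read 7.67 and 7.72 in 4F and 7.22 and 7.28 in GFP on day 8, a difference of 0.45 (adjusted p = 0.022). GFP began at 7.97 and 7.87 on day 0 and fell by 0.67 (adjusted p = 0.0023). Foxp1, a repressor active in lymphoid and cardiac development, read 7.69 and 7.75 in 4F and 7.98 and 8.32 in GFP, a difference of -0.43 (adjusted p = 0.022). Foxp2, known for its role in vocal learning circuits, read 5.83 and 5.61 in 4F and 6.13 and 6.16 in GFP, a difference of -0.42 (adjusted p = 0.037). The Foxn2 call was lost in all 4 leave-out fits and the Foxp1 and Foxp2 calls in 3 of 4.

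Small mean differences over days 1, 3, 5 and 8 were also called for Foxj3 (0.25 ± 0.07), Foxk2 (0.24 ± 0.09), Foxi1 (-0.17 ± 0.05), Foxj1 (-0.14 ± 0.05) and Foxp3 (-0.12 ± 0.05), with adjusted p from 0.0074 to 0.047. Under quantile normalization the calls of Foxk2, Foxj1 and Foxp3 were lost, with adjusted p of 0.077, 0.065 and 0.11. The Foxp3 call was also lost with arrays centred on their medians (adjusted p = 0.07) and with the trended robust prior (0.066). With 1 array left out, the differences ran from 0.21 to 0.28 for Foxk2, -0.18 to -0.11 for Foxj1 and -0.16 to -0.09 for Foxp3. The calls of Foxk2, Foxj1 and Foxp3 were each lost in most of these leave-out fits. Foxp3, the regulator of regulatory T cells, and Foxi1, of proton-secreting cells, spanned 0.358 and 0.425 log2 units across all 31 arrays. Foxj1 is the master regulator of motile cilia. Of 26 motile cilia genes, 1 was called on day 8, lower in 4F, against 27.6% of all genes called. It was Ccno, a cyclin of multiciliated cells (-0.33 ± 0.10, adjusted p = 0.023), and the median of the list was -0.02. Foxn3, a repressor linked to cell cycle checkpoints, rose in GFP by 0.70 against day 0 (adjusted p = 0.024), and by 0.41 on its other row.

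Against day 0, 8 of 43 members were called in 4F on day 8 (15.9% of all genes) and 9 of 43 in GFP (20.1%). Foxc2, Foxf2, Foxs1 and Foxo3 were called in both, in the same direction, in comparisons that share the day 0 arrays. Foxd1, Foxo4, Foxo1 and Foxf1 were called in 4F alone and Foxm1, Foxn2, Foxk2, Foxn3 and Foxj1 in GFP alone. Foxf1 in 4F stood at -0.39 (adjusted p = 0.036). That call was lost with the trended robust prior (adjusted p = 0.055). In the leave-out fits the value ran from -0.47 to -0.31, and the call was lost in most of them. In GFP, the calls of Foxf2 and Foxk2 were lost in all 4 leave-out fits, those of Foxn3 and Foxj1 in 3 of 4 and that of Foxs1 in 2 of 4. Under quantile normalization the GFP calls of Foxk2 (adjusted p = 0.14) and Foxj1 (adjusted p = 0.053) were lost as well. For Foxd1, Foxo4, Foxm1 and Foxn2 the difference between the arms on day 8 was itself called, as given above, and for Foxo1, Foxf1, Foxk2, Foxn3 and Foxj1 it was not.

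**Figure D4:**
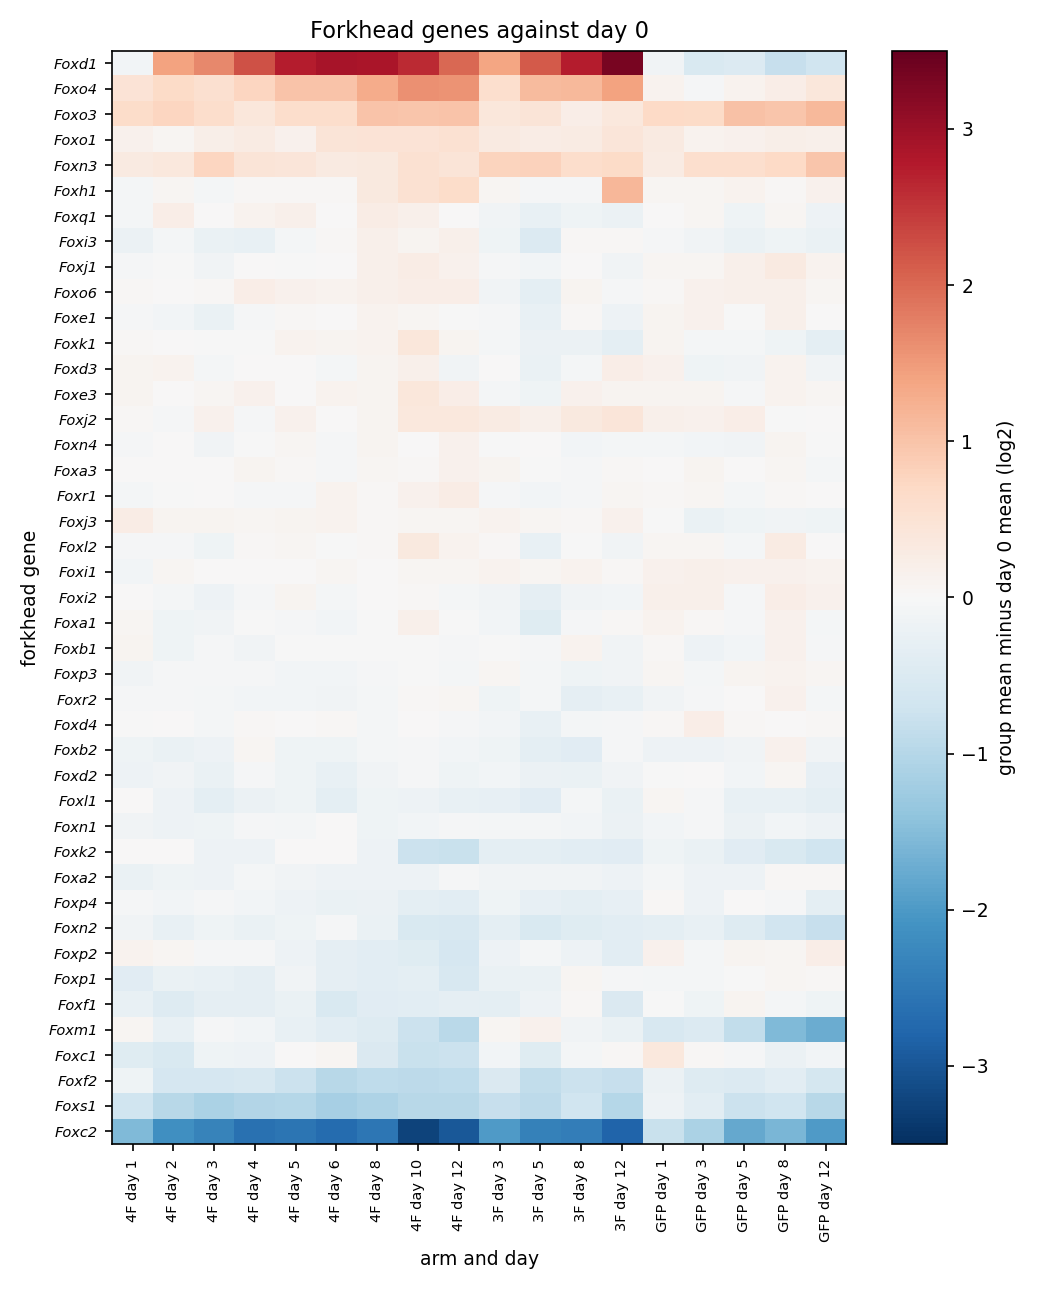
Group mean minus the day 0 mean (log2) for the 43 Fox genes in the 18 infected groups, by arm and day. Foxd1 stands out as raised in 4F and 3F, Foxc2 as lowered in all arms, and most other members stay near 0.

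The 3F arm was compared with the others with terms for day and arm on days 3, 5, 8 and 12, where its 4 single arrays stand in for replicates. Against GFP, 10 of 43 members were called (23.3%, against 18.3% of all genes): Foxd1, Foxm1, Foxo4 and Foxj3 higher (9.47% of all genes were), and Foxc2, Foxo3, Foxi2, Foxf2, Foxj1 and Foxr2 lower (8.82%). These comparisons use the GFP arrays that also serve 4F. With the replicate block, 3F enters only by way of its single day 12 array. The block values below are therefore no check of the comparison over all 4 days. With the replicate block the count was 5 (11.6%, against 13.9% of all genes), with Foxd1, Foxm1 and Foxo3 kept and Foxd3 and Foxh1 added. Foxc2 read 6.32, 5.94, 5.87 and 5.50 on the 4 days, with a difference of -0.77 ± 0.16 (adjusted p = 0.0035, and 0.14 with the block). Foxf2 (-0.26), Foxi2 (-0.28), Foxj1 (-0.24), Foxj3 (0.24) and Foxr2 (-0.22) differed by less, with adjusted p from 0.023 to 0.048 and from 0.14 to 0.56 with the block.

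Between 4F and 3F, limma called 0 of 43 members, against 9.63% of all genes. With the replicate block, in which 3F enters only by way of day 12, 0.0702% of all genes and 0 members were called. At an unadjusted p under 0.05 there were 5, namely Foxk1, Foxm1, Foxo3, Foxo6 and Foxq1 (11.6%, against 23.5% of all genes). Foxq1 and Foxk1 were called when the replicate 2 4F array of day 3 was left out. The interval of Foxd1 covers differences up to 0.65 in size, so like levels of Foxd1 with and without c-Myc are not shown.

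Of the 43 members, 23 were called in none of the 10 contrasts without the replicate block. With it, Foxc1, Foxd3, Foxe1, Foxh1, Foxi3 and Foxq1 were called in at least 1. Their day 8 differences ran from -0.30 to 0.33. They include the endoderm factors Foxa1 (-0.15, 95% interval from -0.59 to 0.29), Foxa2 (-0.22, from -0.53 to 0.10) and Foxa3 (0.01, from -0.16 to 0.19). Of 16 measured endoderm genes, 2 were higher on day 8 (14.5% of all genes were) and 1 lower (13.0%), with a median of -0.14. Cxcr4, a chemokine receptor, was 2.02 ± 0.28 higher, Prox1 0.36 ± 0.11 higher, and Gata6 lower at -1.16 ± 0.15. Foxd3, the forkhead of pluripotent cells, stayed between 5.87 and 6.42 on all 31 arrays, and its day 8 interval ran from -0.28 to 0.27. Foxh1 lay between 5.22 and 5.48 on the GFP and day 0 arrays, at 5.40 and 5.80 on day 8 of 4F, and at 5.81 and 5.92 on the single 4F arrays of days 10 and 12. Its highest value, 6.43, was on the single 3F array of day 12. Over days 3 to 12 the 3F minus GFP difference was 0.14, which was not called. With the replicate block, in which 3F enters only by way of that array, the difference was 0.82. The single 4F arrays of days 10 and 12 were not tested on their own.

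The others were Foxb1, Foxb2, Foxc1, Foxd2, Foxd4, Foxe1, Foxe3, Foxi3, Foxj2, Foxk1, Foxl1, Foxl2, Foxn1, Foxn4, Foxo6, Foxp4, Foxq1 and Foxr1. Among them, Foxe1, a thyroid factor, came to -0.36 on day 3 (adjusted p = 0.19, and 0.015 with the block) and Foxd4 to -0.30 (adjusted p = 0.12). Foxi3, an ectodermal factor, had a change of 0.50 from day 1 to day 8 (adjusted p = 0.17, and 0.033 with the block) and a day 8 difference of 0.33 (adjusted p = 0.10, and 0.020 with the block). Foxn1, the factor of thymic and hair epithelium, stayed between 5.39 and 5.69, and Foxl2, of the ovary, between 6.30 and 7.12. Foxe3, of the lens, stayed between 6.46 and 7.07, and Foxr1 between 4.95 and 5.36.

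Over the 31 arrays, 11 of the 43 members ranged over more than 1 log2 unit, as did 37.5% of all genes, and Foxd1 and Foxc2 over more than 2, as did 9.82%. The table gives no detection calls, so a low, flat signal does not show that a gene is silent.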

How the data were processed

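Per the labels' protocols, RNA was extracted with on-column DNase digestion, and biotinylated targets were made from 120 ng (the 12 replicate 1 arrays) or 300 ng (the other 19 arrays) for Affymetrix whole-transcript labelling. The authors deposited log2 signals per probe set, from 4.27 to 14.33. How they normalized them is not stated in the labels. Array medians lie between 6.04 and 6.17, and the values were used as deposited. No detection values were used, and precision is limited by how few arrays each group has.

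Of 28853 rows, 21789 had 1 gene symbol in the platform annotation, 1621 had several and 5443 had none. These gave 19938 genes, each by its row of highest mean, with 45 rows for the 43 Fox genes. Cross-hybridization between paralogs was not examined.

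limma 3.58.1 in R 4.3.3 fitted 1 mean per group to all 31 arrays (12 residual and 2.68 prior degrees of freedom), and day plus arm to the 18 arrays of days 3, 5, 8 and 12 for the 3F comparisons (12 and 2.26). A gene was called where its p, adjusted by Benjamini-Hochberg across the whole table, was under 0.05. Replicate numbers come from the titles, go with the RNA input given above, and were checked for pairing: replicate differences of 66 pairs of groups correlated across genes with r from 0.081 to 0.686, and 65 exceeded 0.1. The block adds the replicate sets as a term, and 3F then enters only by way of day 12. Alternatives were centring, quantile normalization, the mean over rows, a filter on low signal, a trended robust prior, the block, and leaving out each array. The members were described in full where called in 4F against GFP on day 8 or on average, or with 3F. From each list the 3 called genes with the largest difference were named where it had them. Members and gene lists were chosen with earlier results of these data known. The scripts were tested on simulated data.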

Additional observations from a re-analysis of the deposited data

Results flagged for a closer look

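For 2 of the 43 Fox genes the difference of 4F from GFP on day 8 departed from that on day 1 in a test of the change itself (4.65% of members, against 8.49% of all genes). For Foxd1 the change was 3.63 (log2, adjusted p = 8.5e-05), from 0.02 on day 1 to 3.66 on day 8. For Foxf2 it was -0.57 (adjusted p = 0.032), from 0.05 to -0.52, and it was called in 1 of 8 leave-out fits. The fibroblast markers moved over the same days, with 11 of 18 shifting lower in the same test, and their part in these results was not tested.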

How the results depend on the processing

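None of the 57 called differences changed sign under the alternatives run. Under centring on array medians, 54 of the 57 called pairs of Fox gene and contrast stayed called, under quantile normalization 50, under the trended robust prior 52, with the mean over rows 57, and with the replicate block 50. With the block, 2 Fox genes were called on day 1 (4.63% of all genes) and 4 on day 3 (18.8%). The counts were 6 on day 5 (28.2%), 12 on day 8 (34.2%) and 16 in the mean over days (43.5%). They were 3 for day 8 minus day 1 (14.1%), 10 in 4F against day 0 (22.1%) and 10 in GFP (26.6%). Counts for 3F with the block stand beside the 3F results. Beyond the changes given beside the results, the block added Foxr2 on day 8 (adjusted p = 0.044) and Foxk2 on day 5 (0.036) and day 8 (0.049). It also added Foxp2 in the mean over days (0.026), and Foxp1 (0.042) and Foxp2 (0.039) in 4F against day 0. Beside each result stand its changes for Foxe1, Foxi3, Foxc1, Foxs1, Foxf1, Foxf2, Foxd1 and the 3F comparison, and Foxq1 on day 5 had adjusted p = 0.042. It changed no other call. The filter on low signal left 20 members, with 1 called on day 3, 5 on day 8, 8 in the mean over days, 1 for day 8 minus day 1, 5 for 4F against day 0 and 5 for 3F against GFP, since fewer genes are tested. Leaving out 1 array, where a lone array is assumed to vary like the other groups, gave counts of 0 on day 1, 2 to 3 on day 3, 1 to 3 on day 5 (1 without the replicate 2 4F array), 3 to 7 on day 8 (3 without the replicate 2 4F array), 11 to 17 in the mean over days, 1 to 4 for day 8 minus day 1, 5 to 8 for 4F against day 0, 4 to 6 for GFP against day 0, 4 to 10 for 3F against GFP and 0 to 2 for 4F against 3F.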
